A study of Drosophila melanogaster with 2 samples.

Results

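Dosage compensation in Drosophila melanogaster was followed here through 7 genes, chosen by name: the noncoding RNAs roX1 and roX2 and the mRNAs of msl-1, msl-2, msl-3, mle and mof. All 7 were present in both deposited gene tables, among 17720 genes in all. In males the MSL complex, made of the products of these genes, spreads along the single X chromosome and raises its transcription by acetylating histone H4. MSL2 and MSL1 form the core that recognises the X, MSL3 and the acetyltransferase MOF join it, and the RNA helicase MLE remodels roX1 or roX2 so that the RNA can be incorporated. In females Sxl blocks the synthesis of MSL2, the complex does not form, and the roX RNAs, which are abundant in male cells, are scarce.

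The RNA came from ovaries, a female tissue, of the wild-type strain Oregon-R, taken from young females at most 12 hours after eclosion, with about 200 females per precipitation. One ovarian lysate was divided between an antibody against Lsd1, a histone demethylase of chromatin silencing, and a control antibody, and the RNA recovered by each was sequenced without poly(A) selection (RNA immunoprecipitation, RIP). The control is titled IgG-RIP, while the antibody named for it is against GFP. Values given "with IgG" or "with Lsd1" are those of the IgG-RIP or the Lsd1-RIP library. Both groups share strain, tissue, age and lysate and carry no transgene or mutation in the labels, each library pools many animals, and there is 1 library per group, so the antibodies could not be compared by a test and no p-value is given. Less RNA per cell and fewer cells with the RNA cannot be told apart in such lysates.

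Levels are FPKM, fragments scaled to transcript length and sequencing depth, with the lower and upper bound that the authors' tables give for each gene. The difference between libraries is the log2 ratio of (Lsd1-RIP FPKM + 1) to (IgG-RIP FPKM + 1). Its interval, 2 standard errors either way, comes from the deposited bounds and covers counting and assignment error only, not the variation between repeated precipitations. The 6025 genes that had an estimate in each library and averaged an FPKM of 1 or more served as the background, and 4 of the 7 genes were among them. The median log2 ratio of the background was 0.32, with the middle 50% of genes between 0.13 and 0.52, so a ratio near 0.32 marks a typical gene. Without ribosomal RNA, the bounds correspond to about 1039520 fragments with IgG and 1201800 with Lsd1.

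The roX RNAs were at or near 0 in both libraries. roX1 (lncRNA:roX1, X:3857230-3862697, dm6) was listed at 0 in each of them. roX2 (lncRNA:roX2, X:11579065-11580432) had 0.047 FPKM, with bounds of 0 and 0.47, in the IgG-RIP library, and its Lsd1-RIP value was 0. Neither RNA was therefore measured well enough for a ratio, and no fold is given. For scale, 143 genes with loci of 1000 to 1800 nt and approximately 1 fragment (0.9 to 1.1) in the IgG-RIP library had a median FPKM of 0.059, with a range of 0.035 to 0.70. The FPKM of roX2 lay within that range, but its own bounds, which are wider than counting error on 1 fragment would give, correspond to only 0.049 approximate fragments. In the Lsd1-RIP library 161 such genes had a median of 0.067, from 0.040 to 0.22. This yardstick was chosen after the values were seen.

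A listed 0 need not mean absence in these tables. Tip60, the gene of a broadly used acetyltransferase, was also listed at 0 in both libraries. Its locus overlaps those of dgt4, also at 0 in both, and of tyf, which had an FPKM of 7.42 and 18.4. roX1 likewise shares 392 nt with ec (X:3811698-3857621), measured at 1.11 FPKM with IgG and 1.56 with Lsd1. Since the library kit did not mark strand, fragments in that shared stretch cannot be assigned by strand. The other 5076 nt of the roX1 locus do not overlap a listed gene, and its next neighbour yin, 268 nt away, was measured at 12.8 and 18.1. roX2 overlaps no listed gene and lies between CG11695, at 2.23 and 2.81, and nod, a kinesin-like gene, at 2.86 and 4.20. Transcripts on either side of both roX loci were thus measured in the same libraries.

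Most long noncoding RNAs were likewise listed at 0. Of 1954 lncRNA genes with an estimate, 1553 (79.5%) were listed at 0 in both libraries, as roX1 was. In the IgG-RIP library 287 lncRNA genes were above 0, with a median FPKM of 0.23, and 261 of them lay above roX2. There were 96 lncRNA genes, roX2 among them, above 0 in the IgG-RIP library alone, and 114 in the Lsd1-RIP library alone. At a mean FPKM of 1 or more there were 42 lncRNA genes, and neither roX RNA was among them.

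The 5 protein genes of the MSL complex were all measured in both libraries, at low to middling levels. msl-1 (2L:18683720-18688800), which encodes the scaffold of the complex, was at 4.16 FPKM (bounds 3.64 to 4.69) in the IgG-RIP library and at 7.32 (6.56 to 8.08) in the other. mle (2R:5974857-5980778), the gene of the RNA helicase, had 1.95 (1.61 to 2.28) and 3.55 (3.06 to 4.05). mof (X:5873840-5876853), the gene of the histone H4 acetyltransferase, had 1.59 (1.24 to 1.95) and 1.82 (1.41 to 2.22). For msl-1 and mle the Lsd1-RIP interval lay wholly above the IgG-RIP interval, while for mof the intervals overlapped. msl-3 (3L:7123213-7125533), whose product reads histone methylation through a chromodomain, had 1.38 (0.96 to 1.80) and 2.26 (1.67 to 2.85), and here too the intervals overlapped. msl-2 (2L:3462218-3466112), which encodes the male-limiting RING-finger subunit, was at 0.81 (0.58 to 1.05) with IgG and 0.57 (0.36 to 0.79) with Lsd1. It was the only one of the 5 with the lower value in the Lsd1-RIP library, and its intervals overlapped.

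**Figure D1:**
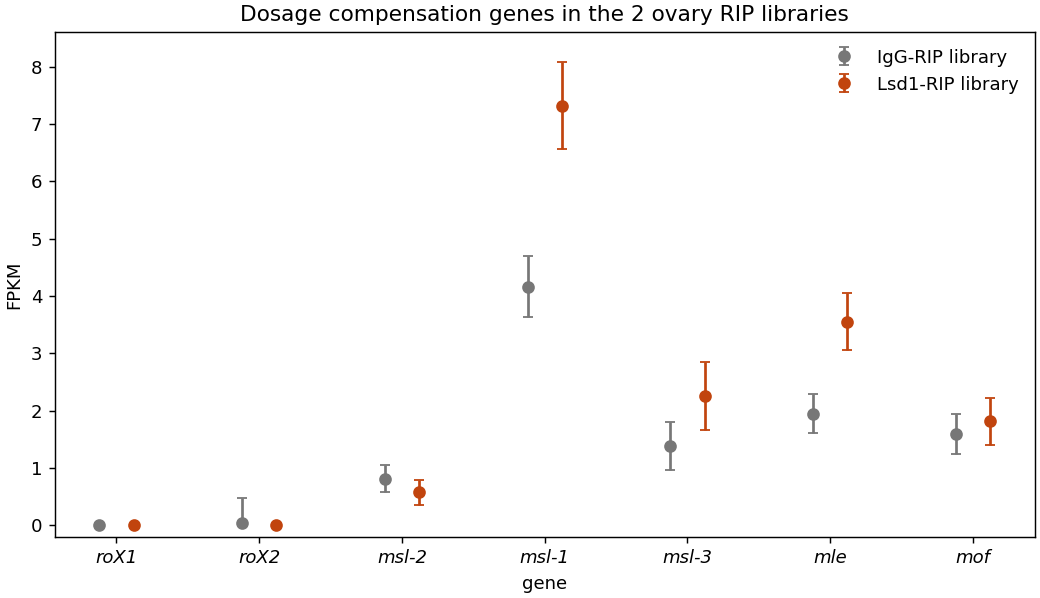
FPKM of the 7 dosage compensation genes (horizontal axis) in the IgG-RIP (grey) and Lsd1-RIP (orange) libraries, 1 library each. Points are the deposited FPKM and bars the deposited lower and upper bounds. The roX RNAs sit at or near 0, msl-1 is the highest in both libraries, and the 2 intervals are separate only for msl-1 and mle.

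Because FPKM is scaled by length, levels can be set beside each other between genes. They are levels of RNA recovered by an antibody, so a difference between genes can reflect recovery as well as amount in the tissue. In the IgG-RIP library the order was msl-1, mle, mof, msl-3 and msl-2. The interval of msl-1 lay above those of the other 4, whereas the intervals of mle and mof, of mof and msl-3, and of msl-3 and msl-2 overlapped. In the Lsd1-RIP library the order was msl-1, mle, msl-3, mof and msl-2. There msl-1 was again separate from the rest, mle was separate from both msl-3 and mof, and all 4 were separate from msl-2, while msl-3 and mof overlapped. The level of msl-1 was 5.12 times that of msl-2 in the IgG-RIP library and 12.8 times in the Lsd1-RIP library. Against all 6025 background genes, msl-1 was above 66.8% with IgG and 74.8% with Lsd1, and mle above 34.6% and 46.3%. msl-2, with a mean FPKM of 0.69, did not reach the background's minimum. Of all 17695 genes with an estimate in both libraries, many of them at 0, msl-2 was above 66.0% with IgG and 61.4% with Lsd1.

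The mRNAs of the complex did not share 1 ratio. As plain ratios of FPKM, mle was 1.82-fold higher in the Lsd1-RIP library (interval 1.46 to 2.28), msl-1 1.76-fold (1.49 to 2.07) and msl-3 1.63-fold (1.09 to 2.44), against a background median of 1.35-fold. For mof the ratio was 1.14-fold (0.83 to 1.56), and for msl-2 it was 0.71 (0.44 to 1.12), below 1. On the log2 scale with the pseudocount, msl-1 was at 0.69 (0.49 to 0.89) and mle at 0.63 (0.40 to 0.85). Both intervals lay above the background median of 0.32. msl-3 was at 0.45 (0.09 to 0.82) and mof at 0.12 (-0.17 to 0.41), and these intervals both held the background median. msl-2 was at -0.20 (-0.47 to 0.06), with an interval wholly below that median.

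None of the 4 genes in the background set was past 2-fold in either direction, where 2.12% of background genes were past 2-fold on the higher and 0.697% on the lower side. Of all calls past 2-fold, 75.3% were higher, or 49.6% with ratios centred on the median, and none of the 4 was called in either case. Lsd1-RIP intervals above the IgG-RIP interval were found for 2 of the 4, msl-1 and mle, and for 36.1% of background genes. Intervals below it were found for none of the 4 and not for msl-2, for 1.64% of background genes and for 2.24% of the 848 genes with a mean FPKM of 0.5 to 1, the range that holds msl-2. With the IgG-RIP bounds first multiplied by the background's median fold of 1.35, a step added after the values were seen, only msl-1 of the 4 remained above, and 10.6% of background genes did. Under the same step the interval of msl-2 lay below its IgG-RIP counterpart. That was so for 3.07% of the genes in its range. In that range the median log2 ratio was 0.21, 77.1% of genes were above 0 (85.4% in the background set), and 9.67% were lower than msl-2. In the background set 88.6% of genes had a lower ratio than msl-1, 84.7% than mle, 66.8% than msl-3 and 23.9% than mof.

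**Figure D2:**
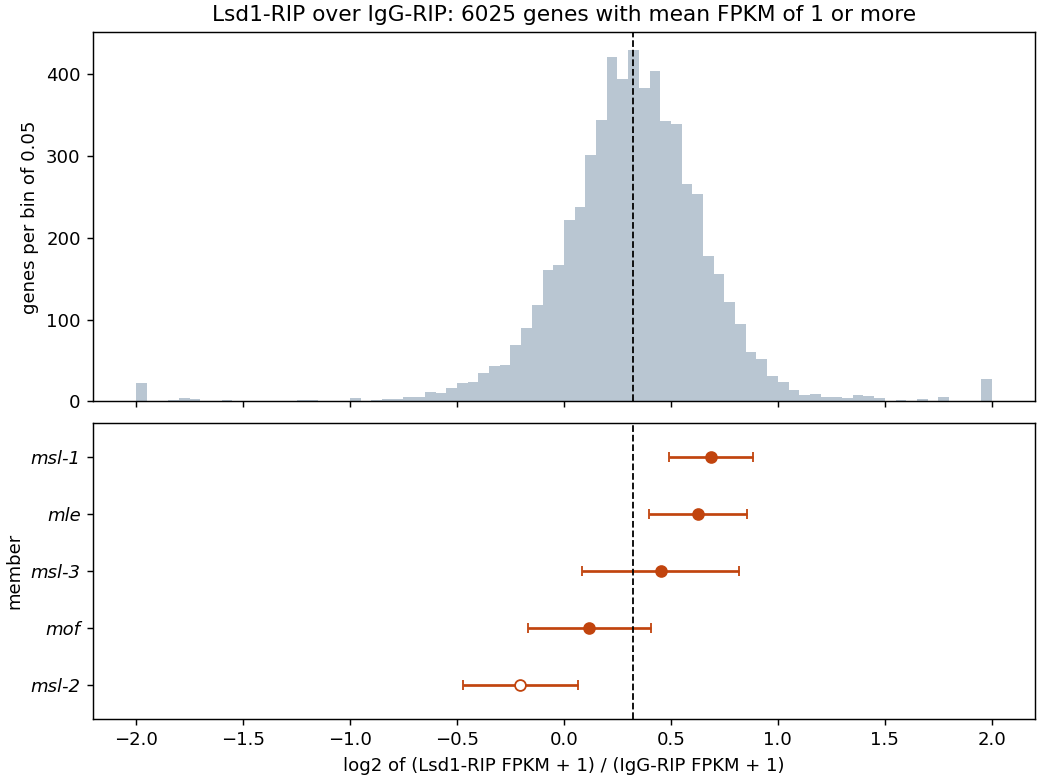
Upper panel, number of genes per bin of the log2 ratio of (Lsd1-RIP FPKM + 1) to (IgG-RIP FPKM + 1) for the 6025 background genes; the outermost bins also hold all genes beyond the axis. Lower panel, the 5 measured MSL complex mRNAs on the same axis with intervals from the deposited bounds (open circle, below a mean FPKM of 1). The dashed line is the background median of 0.32, with msl-1 and mle to its right and msl-2 to its left.

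Differences between the genes were set against their own intervals, for all 10 pairs of the 5 mRNAs. The log2 ratio of msl-1 exceeded that of msl-2 by 0.89 (interval 0.56 to 1.23) and that of mof by 0.57 (0.22 to 0.92). That of mle exceeded that of mof by 0.51 (0.14 to 0.87). msl-2 was below mle by a difference of -0.83 (-1.18 to -0.48) and below msl-3 by -0.66 (-1.11 to -0.20). These 5 pairs had intervals that excluded 0, also on the scale of plain folds. The other 5 pairs did not, and the interval for msl-1 against mle ran from -0.24 to 0.36 and that for msl-2 against mof from -0.72 to 0.07. Within these intervals msl-1, mle and msl-3 were not separated, nor were msl-3 and mof, nor msl-2 and mof.

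Approximate fragment numbers were derived from the same FPKM and bounds, so they are not a separate measurement. The bounds also hold assignment error, and a wider bound at the same FPKM gives a lower fragment number. The fragment numbers placed mle and then msl-1 at the top, the order of the plain folds, and msl-2 at the bottom. msl-2 rested on 48.9 fragments with IgG and 29.3 with Lsd1, although the second library was the deeper, and its log2 ratio after scaling for depth was -0.95. msl-1 rested on 251 and 370 fragments and mle on 135 and 206, with ratios of 0.35 and 0.40. msl-3 had 43.1 and 57.9 fragments (0.22) and mof 81.9 and 79.1 (-0.26). The background median of this measure was -0.0046, so msl-1, mle and msl-3 again lay above it and mof and msl-2 below it. msl-3 shares 85 nt with form3, a formin gene, and the summed fragments of both gave 0.30. The miRNA precursor mir-4971, inside the msl-2 locus, was listed at 0 in both libraries, and mle, msl-1 and mof overlap no listed gene.

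**Figure D3:**
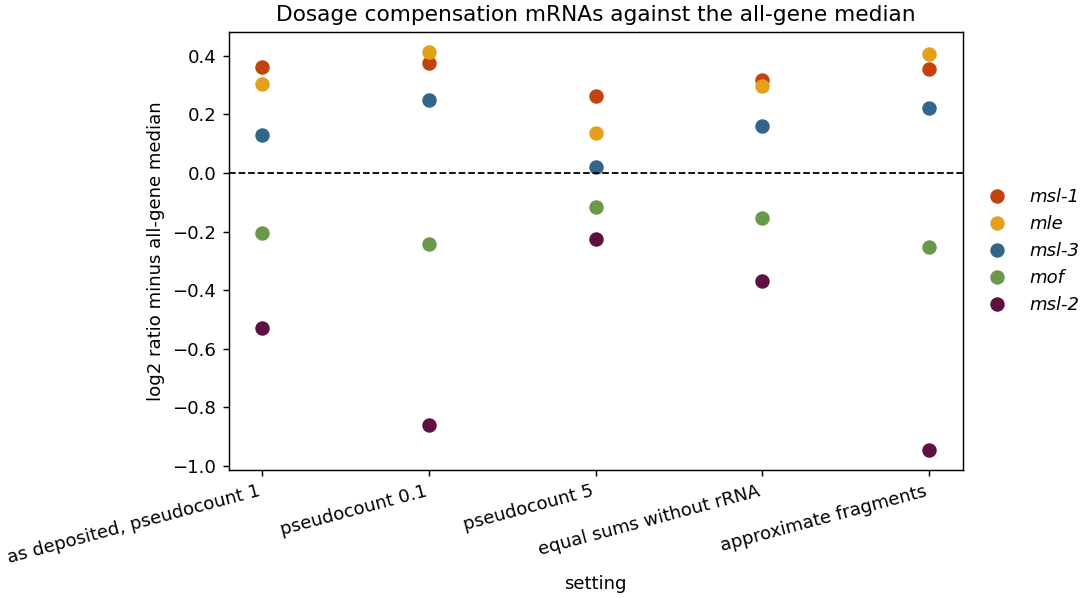
Log2 ratio of each MSL complex mRNA minus the all-gene median under 5 ways of computing it (horizontal axis), 1 point per gene. In each of the 5, msl-1, mle and msl-3 lie above the dashed line at 0 and mof and msl-2 below it.

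Ratios in these libraries also moved with implied length (approximate fragments per FPKM), which is not a measured transcript length. Over 12 equal groups of genes ordered by it, the median log2 ratio was 0.12 in the shortest group and 0.61 in the longest. The groups differed in level too, with a median mean FPKM of 16.7 in the shortest and 2.69 in the longest. msl-1 and mof fell in the same group, the 10th, with a median of 0.39, and mle in the 11th, with 0.46. With the group median removed, msl-1 was at 0.29, mle at 0.16 and msl-3 at 0.14, and mof at -0.28. The interval of msl-1, 0.49 to 0.89, lay above its group median. That of mle, 0.40 to 0.85, held its group median, so mle was not separated from genes of like implied length. The parts of implied length and of level in the ratios of msl-1 and mle were not tested further. msl-2, under the FPKM minimum, was in no length group.

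The genes next to each locus give the local setting. On X, mof at 0.12 lies 482 nt from GAA1 at 0.084 and 146 nt from Usp30 at 0.088, so all 3 were below the background median. ND-PDSW, a respiratory chain gene 44 nt from msl-2, was at -0.24, close to msl-2 itself. CG3246, 265 nt away on its other side, was listed at 0 with IgG and was at 0.54 FPKM with Lsd1, so the neighbours of msl-2 lay in opposite directions. CG31751, only 4 nt from msl-1, was at 0.29 and CG10336 on the other side at -0.04, both below msl-1. BubR1 and Src42A beside mle were at 0.23 and 0.39, below mle at 0.63. Without strand, fragments near the ends of such close loci may be counted for either gene.

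Genes whose pair of values was nearest to that of a member were taken over the 2 libraries by Euclidean distance on log2(FPKM + 1). Nearest to msl-1 were Atox1, a copper chaperone gene, at 4.22 and 7.26, Pex14 of peroxisome import and CG14621. phtf, CG10425 and CG8814 were nearest to msl-3. Nearest to mle were VhaM9.7-c, CG34133 and aurA, the gene of the mitotic kinase Aurora A, the last at 1.99 and 3.62. Nearest to mof were hay, a helicase gene of TFIIH, at 1.59 and 1.83, Rnmt and Brf. With 2 libraries many genes have such pairs by level alone, and these names describe the values and nothing more.

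Genes that work with the MSL complex or with roX were spread to both sides of the background median. Of 13 listed cofactors, all in the background set, 7 were above it and their median was 0.46. Nup153, a nuclear pore gene, was highest: its FPKM was 6.46 with IgG and 13.8 with Lsd1, for a log2 ratio of 0.99 (0.87 to 1.11). E(bx), of the NURF remodeller, was at 0.88. JIL-1, the histone H3 kinase that associates with the MSL complex, went from 2.12 to 3.89 (0.65). Clamp, the zinc finger protein that binds GA-rich sites on X and guides the complex there, went from 3.74 to 5.54 (0.46). At the low end pzg was at 0.05 and Chro at 0.06, which encode partner proteins of interband chromatin, and Iswi, the NURF ATPase gene, was at 0.09. Lsd1-RIP intervals above the IgG-RIP interval were found for 7 of the 13, beside 36.1% of background genes, and after the median fold was applied for 4, with another 4 below, beside 10.6% and 7.93%.

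The NSL complex, which holds MOF at promoters in both sexes, had 6 listed subunit genes besides mof. All 6 were above the background median, and their median was 0.54. nsl1 was highest, from 4.06 to 7.46 (0.74, interval 0.58 to 0.90), and MBD-R2 lowest, from 2.72 to 3.84 (0.38, 0.16 to 0.60). The mof mRNA at 0.12 was lower than every one of these 6. Its interval, -0.17 to 0.41, overlapped those of MBD-R2, dgt1, wds and Rcd5, while the intervals of Rcd1 and nsl1 lay above it. Lsd1-RIP intervals above the IgG-RIP interval were found for 5 of the 6, beside 36.1% of background genes. After the median fold was applied this held for 1 of the 6, with 0 below, beside 10.6% and 7.93%. The relatives of MOF and MSL3 were mixed: enok was at 0.66, chm at 0.37 and MRG15, of the same chromodomain family as MSL3, at 0.15.

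The genes whose products hold msl-2 silent in females were all well measured. Sxl, the female switch protein that binds msl-2 RNA, was at 10.8 FPKM (bounds 9.90 to 11.7) with IgG and 15.9 (14.4 to 17.3) with Lsd1. Its log2 ratio was 0.51 (0.35 to 0.68), but by approximate fragments it was at -0.36. Unr, the corepressor that Sxl recruits to the msl-2 mRNA, went from 4.04 to 8.18 (0.87, interval 0.72 to 1.02), with 0.18 as its fragment ratio, and Hrb27C was lowest at 0.27. Of the 5 genes of this list, 4 were above the background median and the list median was 0.51. By approximate fragments that median was -0.15, below the all-gene value, so the direction of the list depends on the measure. The fragment numbers of Sxl went from 553 to 497 while its FPKM rose. The part of assignment error in this was not tested.

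The sex determination and Sxl splicing genes had the lowest list median, 0.19, with 5 of 13 in the background set above 0.32. By approximate fragments the list was at 0.15, above the all-gene value and above the cofactor and msl-2 repression lists. That median was over fewer genes. It left out tra and ix, which had under 20 fragments in at least 1 library and fragment ratios of -0.38 and -0.42. The effects of the measure and of the gene set were not separated. her, a zinc finger gene, was lowest, from 1.60 to 1.09 (-0.32, interval -0.69 to 0.06), and tra, the female splicing regulator, was at -0.15 from 2.45 to 2.12. da, a helix-loop-helix activator of Sxl, was highest at 0.78. vir, fl(2)d and nito, of the complex that methylates adenosines in RNA and promotes female Sxl splicing, were at 0.62, 0.54 and 0.61. Of the other listed genes of this RNA methylation pathway, Mettl14 was at 0.51 and Ythdc1 at 0.19, with overlapping intervals. Mettl3, under the FPKM minimum of the background set, was at 0.07, so the pathway was not uniformly higher. dsx was listed at 0 in both libraries, and its locus overlaps that of lds, at 4.24 FPKM with IgG and 6.18 with Lsd1. Of 16 listed genes, 1, Xio, was not matched by symbol. None of the genes of these 5 lists was past 2-fold on the scale of FPKM + 1. As plain ratios of FPKM, vir was 2.33-fold, Nup153 2.14-fold, enok 2.12-fold, Unr 2.03-fold and da 2.01-fold higher in the Lsd1-RIP library. The share of background genes past 2-fold on that plain scale was not computed. A smaller pseudocount of 0.1 put 476 of the 6025 background genes at least 2-fold higher, against 128 with a pseudocount of 1.

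**Figure D4:**
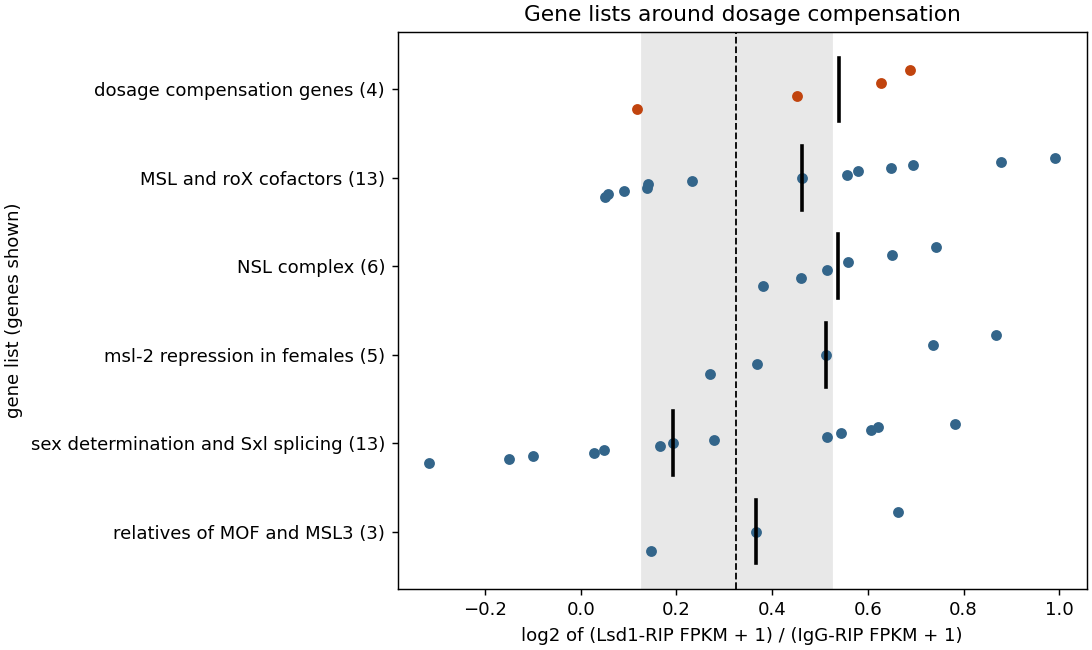
Log2 ratio of (Lsd1-RIP FPKM + 1) to (IgG-RIP FPKM + 1) of single genes (points) in 6 lists, genes with a mean FPKM of 1 or more only; numbers in brackets are the genes shown. Black bars are list medians, the dashed line is the all-gene median of 0.32 and the grey band the middle 50% of all genes, with the NSL complex wholly to the right of the line.

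The X chromosome, on which the MSL complex acts in males, had a median ratio close to that of the autosomes. The 1077 background genes on X had a median log2 ratio of 0.35 and the 4946 on autosomes 0.32, a difference of 0.03. On X, 2.41% of genes were past 2-fold on the higher side, and on autosomes 2.06%. mof, the 1 X-linked protein gene of the set, at 0.12 was below the middle 50% of X-linked genes, 0.15 to 0.55. The median FPKM was 2.76 on X and 2.73 on autosomes in the IgG-RIP library.

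Marker genes bear on the tissue label and on male RNA. All 7 ovarian germline markers and all 7 follicle cell markers were above 0 in both libraries, with summed FPKM of 144 and 338 with IgG and 270 and 449 with Lsd1. Of 23 markers of the male germline and the Y chromosome, 18 were listed at 0 in both, among them kl-2, kl-3, kl-5, ORY and Mst87F. The 5 others were dj and can, each at or under 0.06, bol at 0.97 and 0.94, twe at 1.30 and 2.67, and FDY at 6.61 and 6.87. FDY arose from a copy of an autosomal gene, so its fragments may belong to that gene. Whether the bol and twe values mark male cells was not tested. Against the background median, germline markers lay higher in the Lsd1-RIP library, with 7 of 7 above it and a median of 0.88. Follicle cell markers had 2 of 6 above it and a median of 0.21. Muscle markers lay lower, with 0 of 5 above it and a median of -0.24, though Mlc2 (0.14) and Act57B (0.16) were above 0. By approximate fragments osk, at -0.022, fell below the all-gene value, and vas (0.033) and orb (0.046) were just above it. By that measure ovo, otu, nos and bcd ranged from 0.37 to 1.20. The part of these cell types in the ratios of msl-1, mle and msl-2 was not tested.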

How the data were processed

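RNA from 2 precipitations of 1 ovarian lysate was sequenced, 1 library each. Per the file headers, the authors deposited an FPKM for every gene together with its bounds and a status. Cufflinks, SAMtools (0.1.18.0) and Bowtie2 (2.0.6.0), and the build dm6, are credited to the submitters' processing notes, which give no roles here; the annotation was not given in the sources used. Loci are counted from 1. The authors' tables marked 25 loci HIDATA, and these were left out. Biotypes came from RefSeq's Release 6 plus ISO1 MT table, which matched 16900 of 17720 genes by symbol.

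From these values log2 ratios with a pseudocount of 1 were computed in Python 3.11.15 (numpy 2.4.6, pandas 2.3.3). Approximate fragments are the squared ratio of FPKM to its standard deviation, with the upper bound taken to lie 2 standard deviations up; depth is their sum without ribosomal RNA, and the depth limits low genes most. The functions were tested on simulated data. There were no replicates and no test. Named genes are the 7 members, the highest and lowest of each list, genes overlapping or next to a member and the 3 nearest in level. Other list genes were named for their roles after values were seen. Members and lists were chosen with earlier results of these data known. Pseudocounts, scalings, filters and length groups were varied.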

Additional observations from a re-analysis of the deposited data

How the results depend on the processing

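No paired analysis was possible because each group has 1 library. Against the all-gene median of each setting, msl-1, mle and msl-3 stayed above and mof and msl-2 below in every alternative that gave such a value. The log2 values moved by more than 2 standard errors (for lists, than the median of this over their genes) as follows. With a pseudocount of 5, msl-1 was at 0.43, mle at 0.30 and the cofactor list at 0.27. Centred, msl-1 was at 0.36, mle at 0.30, mof at -0.21 and msl-2 at -0.53. The cofactor, NSL, msl-2 repression, sex determination and MOF relative lists were then at 0.14, 0.21, 0.19, -0.13 and 0.042. Scaled to equal sums without ribosomal RNA, msl-1 was at 0.35 and mle at 0.33, and the first 4 lists at 0.14, 0.19, 0.15 and -0.12. There mof was at -0.12, a smaller move that turned its sign. By approximate fragments, alone or summed with overlapping genes, msl-1 was at 0.35, msl-2 at -0.95 and mof at -0.26, and by fragments alone the first 3 lists at 0.083, 0.17 and -0.15. By that measure the sex determination list, over fewer genes, lay above the all-gene median by 0.16, where it had been below. With the median of like implied length removed, msl-1 was at 0.29, mle at 0.16 and mof at -0.28. The cofactor median was 0.23 over genes with a mean FPKM of 5 or more, and the X minus autosome difference 0.0023. Against the all-gene median of that setting the cofactor list was at -0.067, where it had been above. The MOF relative list moved less with a pseudocount of 5, to 0.13, but was then at -0.039 against the all-gene median.

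The number of genes at least 2-fold higher, 128, was 476 with a pseudocount of 0.1, 32 with 5, 62 when centred, 58 at equal sums, 42 by fragments and 70 at a mean FPKM of 5 or more. The number lower, 42, was 15 with a pseudocount of 5, 66 and 11 at a mean FPKM of 0.1 and 5, and 7 among genes above 0 in both libraries. With the IgG-RIP bounds multiplied by the median fold, 1 member rather than 2 had a separate, higher interval. The cause of these shifts was not tested. The roX RNAs rested on 0.049 approximate fragments or a listed 0, and msl-2 on under 50 fragments per library. The parts of depth and of scarcity in the roX values were not tested.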
